A study of Homo sapiens with 6 samples.

Results

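The 9 genes described here encode enzymes of glutamate, asparagine and oxoglutarate metabolism, and they are 9 of the 29804 gene symbols in the count table. ASNS and OGDHL were taken because the study names them for these cells, and OGDH, DLST, DHTKD1, GPT2, PCK2, GOT1 and GLUD1 because they are their paralogs or catalyse neighbouring steps. The study named ASNS from these same RNA values, and OGDHL from DNA methylation and then from these RNA values. It also reported more ASNS protein, and less RNA of both genes by RT-qPCR, after a single dose of radiation. The members were chosen with earlier results of these data known, so their shares and medians beside all genes are descriptive. All 9 were among the 14672 genes with enough reads to be tested. RNA was sequenced from 22Rv1, an established human prostate carcinoma line, in 3 groups of 2 libraries that the labels call biological replicates. WT cells had no treatment and were collected at week 0. AM (age matched) cells were cultured to week 6 without the drug. 6WP cells were cultured over the same 6 weeks and treated on each week day with 1 µg/ml phleomycin, a radiomimetic that breaks DNA. Each treatment lasted 1 hour, and the drug was then washed off. All groups are labelled as wild type in genotype and were grown in the same serum-containing medium. The 6WP libraries hold the cells that were alive after the treatment, so a change within cells and a change in which cells made up the culture cannot be told apart in these bulk RNA values.

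Glutamate is the hub of this part of metabolism. Its amino group is passed to oxaloacetate, pyruvate and other oxoacids by transaminases, which turn glutamate into oxoglutarate, and glutamate dehydrogenase makes the same oxoglutarate by releasing ammonia in the mitochondrion. Oxoglutarate dehydrogenase then burns oxoglutarate in the tricarboxylic acid (TCA) cycle to succinyl-CoA. Asparagine synthetase draws its nitrogen from glutamine and its carbon from aspartate, and mitochondrial PEP carboxykinase draws oxaloacetate out of the cycle. ASNS, PCK2 and GPT2 are known targets of the transcription factor ATF4, which is made when amino acids are short or unfolded protein accumulates.

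Libraries held between 21222201 and 35311945 counts, so that 3 counts, taken as the smallest detectable amount, equalled 0.0883 to 0.138 CPM (reads scaled to a common library size, with TMM factors). This floor covers counting error only. The 6WP libraries differed from each other the most, with a chi-square per degree of freedom of 63.9, beside 9.14 for the AM pair and 5.67 for the WT pair. All 10 prostate luminal markers passed the filter in these cells, with a summed level of 3211 to 3399 CPM in WT, 2222 to 2550 in AM and 2555 to 3597 in the 6WP libraries. The summed leukocyte, endothelial and fibroblast markers reached at most 3.70, 0.138 and 3.72 CPM in any library. Levels below are CPM, and genes are compared with each other only as CPM per kilobase of the canonical transcript.

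Set against WT cells, 6WP cells had more RNA of ASNS, GPT2 and PCK2. These 3 members were the ones past an adjusted p-value of 0.05 (edgeR's quasi-likelihood test), and they rose by 2.25, 2.23 and 3.50 times. Over all tested genes 3.00% passed this test, 1.63% higher and 1.37% lower in 6WP cells. No member was lower at an adjusted p under 0.05 by edgeR or by the Wald test of DESeq2. At an unadjusted p under 0.05 none was lower in this edgeR test, and DLST was in the Wald test, at -0.24 on the log2 scale. The median log2 fold change of the 9 members was 0.48, beside 0.01 over all tested genes. Without WT replicate 1 or without WT replicate 2, edgeR called no gene of the whole table in this comparison, and 4 members had an unadjusted p under 0.05. Without either 6WP library it called more members, and also far more genes over the whole table, than in the fit to all libraries.

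AM cells were the reference of the same age. Against them, 6WP cells had more ASNS, OGDHL, PCK2 and GLUD1 and less OGDH. These 5 of 9 members passed the test where 21.3% of all tested genes did, with 11.7% of all genes higher and 9.68% lower. Upper quartile normalization changed this split over all genes to 2276 higher and 1062 lower, from 1711 and 1420. The median of the members was 0.32 on the log2 scale and that of all tested genes 0.05. The number of members called fell without any single WT or AM library and rose without either of the 6WP libraries. The number called over all genes moved the same way.

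Members also differed between the untreated groups. AM cells had more ASNS, OGDH, GPT2, PCK2 and GOT1 than WT cells, which is 5 of 9 members higher where 7.74% of all tested genes were higher, 9.93% lower and 17.7% called in all. Over all genes the split of 1136 higher and 1457 lower became 689 and 1832 after upper quartile normalization and 729 and 1664 with library totals alone. The median of the members was 0.45 on the log2 scale, and that of all tested genes was -0.0023. GLUD1 had the lowest value of the members, -0.38, at an adjusted p of 0.0510 in the main edgeR fit and 0.0334 by the Wald test of DESeq2. It passed in 8 of 11 alternative settings, and with a gene length offset it was -0.21 (adjusted p = 0.206). With any single WT or AM library left out, edgeR called no member and 4 to 5 had an unadjusted p under 0.05. The comparisons share libraries with each other (the WT pair, the AM pair or the 6WP pair), so their values are given side by side and not as separate evidence.

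**Figure D1:**
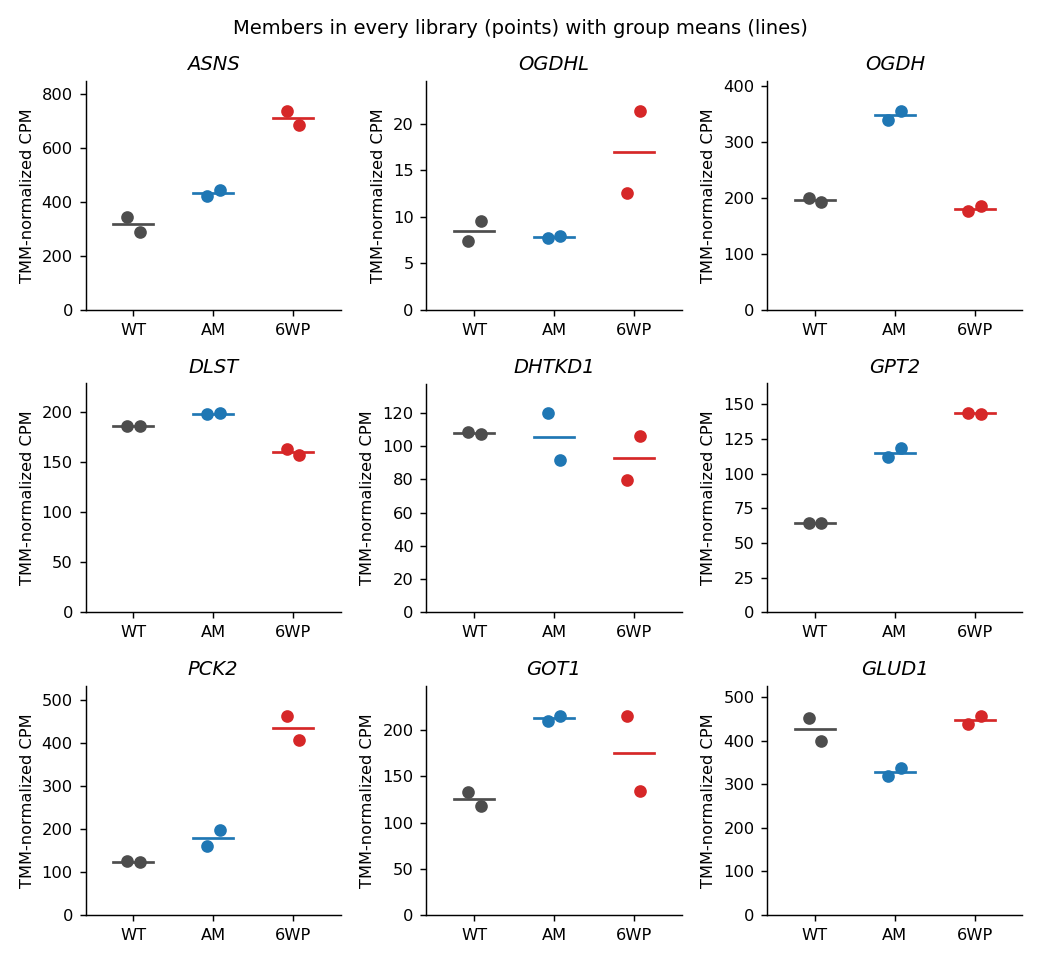
TMM-normalized CPM (y axis, linear from 0, a scale of its own for each gene) of the 9 members in each library (points) of the WT, AM and 6WP groups, with lines at the group means of 2 libraries. ASNS, GPT2 and PCK2 step up from WT to AM to 6WP cells, OGDH is high in AM cells at 340 and 355 CPM, and GLUD1 is low there at 319 and 338 CPM.

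**Figure D2:**
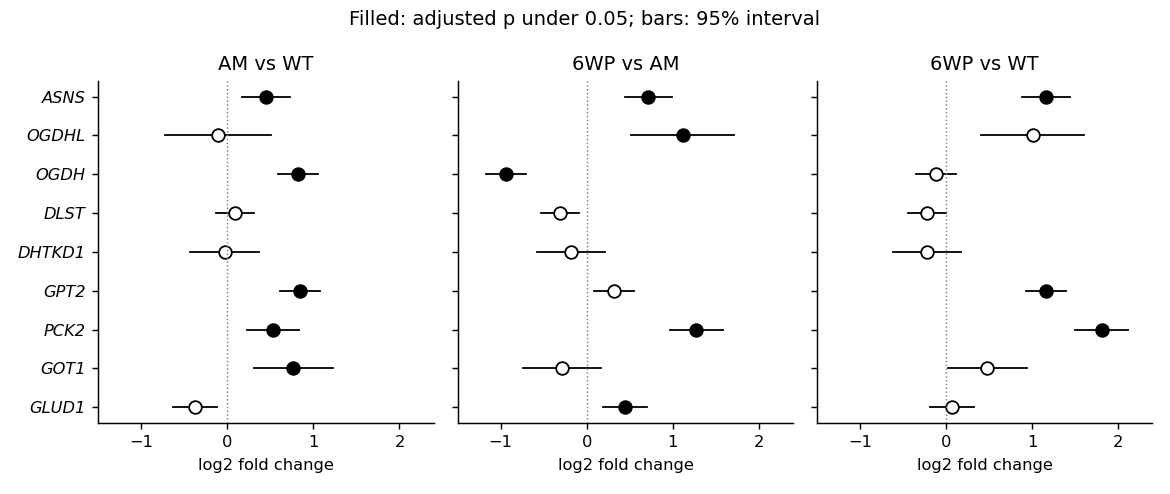
Log2 fold change (x axis) of each member in the 3 comparisons, with 95% intervals from the edgeR quasi-likelihood fit. Filled points have an adjusted p under 0.05 over 14672 genes. PCK2 is the furthest to the right against WT cells, at 1.81, and OGDH lies on opposite sides of 0 in the AM against WT and the 6WP against AM panels.

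Asparagine synthetase is encoded by ASNS (chromosome 7, 97851677 to 97872542 on the minus strand, GRCh38). It makes asparagine from aspartate with the amide nitrogen of glutamine, leaving glutamate. ASNS was at 344 and 290 CPM in WT, 423 and 445 in AM and 738 and 688 in the 6WP cells. The 3 groups did not overlap, and their order was WT, AM, 6WP. Each step of this order passed the test. The log2 fold change was 0.45 from WT to AM cells (standard error 0.12, adjusted p = 0.0382), 0.72 from AM to 6WP cells (standard error 0.12, adjusted p = 0.00815) and 1.17 from WT to 6WP cells (standard error 0.12, adjusted p = 0.00528). The step from WT to AM cells passed in 9 of 11 alternative settings. It depended on the scaling, with an adjusted p of 0.0660 after upper quartile normalization and 0.0585 with library totals alone. Leaving out either library of WT or AM also ended it, as leaving out a WT library did for 6WP against WT (adjusted p up to 0.143) and an AM library for 6WP against AM (up to 0.0979). Of the exon sequence of ASNS, 49.3% also lies in the exons of a long non-coding RNA on the same strand (ENSG00000284707), so reads of the pair cannot be told apart there.

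The promoters of ASNS, GOT1 and PCK2 are shown because ASNS and PCK2 rose in every comparison and because 2 of the 7 members with a promoter in the RefSeq table (GRCh38.p14) hold the letters TGATGNAA, the core of the response element that ATF4 binds together with a C/EBP factor. The search covered both strands of windows from 250 bases before to 50 bases after the annotated start, and 1270 of 35116 such windows (3.62%) hold a match. Capitals mark the match, at -68 from the start in ASNS and, on the reverse strand, at -198 in GOT1. The windows lie at chr7:97872359-97872658 on the minus strand, chr10:99430575-99430874 on the minus strand and chr14:24094061-24094360 on the plus strand, and each is written from 5′ to 3′ in the direction of its gene.
ASNS: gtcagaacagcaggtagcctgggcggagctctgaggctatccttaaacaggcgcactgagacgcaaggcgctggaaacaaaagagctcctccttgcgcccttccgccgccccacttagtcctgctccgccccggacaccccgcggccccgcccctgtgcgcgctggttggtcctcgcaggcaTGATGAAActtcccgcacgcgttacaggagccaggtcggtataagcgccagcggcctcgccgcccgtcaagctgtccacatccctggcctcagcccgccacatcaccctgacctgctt
GOT1: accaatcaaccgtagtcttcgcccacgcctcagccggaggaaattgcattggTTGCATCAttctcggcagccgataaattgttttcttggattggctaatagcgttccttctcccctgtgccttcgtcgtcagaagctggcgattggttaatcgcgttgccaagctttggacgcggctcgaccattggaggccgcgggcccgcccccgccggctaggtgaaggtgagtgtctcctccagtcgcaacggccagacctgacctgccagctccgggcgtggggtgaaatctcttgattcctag
PCK2: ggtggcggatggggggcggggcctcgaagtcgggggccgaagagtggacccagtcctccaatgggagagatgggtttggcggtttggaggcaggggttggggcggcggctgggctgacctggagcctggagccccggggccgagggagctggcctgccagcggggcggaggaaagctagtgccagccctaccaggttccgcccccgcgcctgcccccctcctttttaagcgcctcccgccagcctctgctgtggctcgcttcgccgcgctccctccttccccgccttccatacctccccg
PCK2, which had the largest rise of the members in 6WP cells, has no match in this window, nor do DLST, DHTKD1, GLUD1 and OGDHL. The palindrome TGACGTCA, bound by CREB and related factors, was in 1.85% of all windows and in none of the 7 members. Members are counted here by gene and the shares over all promoters by window. ASNS and OGDHL each have a second window, and neither of these holds a match to TGATGNAA. A match describes letters and not binding, and its absence says only that these letters are not in this window.

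Oxoglutarate dehydrogenase is built from an E1 that decarboxylates oxoglutarate, an E2 that passes the product to coenzyme A and an E3 that restores the E2's lipoyl group. OGDH encodes the main E1, OGDHL a paralog best known from brain, and DHTKD1 the related E1 that acts on oxoadipate in lysine breakdown. DLST is the E2 that these E1 enzymes use. The E1 paralogs moved apart in these cells. OGDH was highest in AM cells and OGDHL in 6WP cells.

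OGDHL (chromosome 10, 49734641 to 49762379 on the minus strand) had the fewest reads of the members, with between 165 and 606 counts a library. It was at 7.37 and 9.51 CPM in WT, 7.71 and 7.89 in AM and 12.5 and 21.4 in the 6WP cells. The WT and AM ranges overlapped, and both 6WP libraries lay above them, though they differed from each other by more than the WT and AM libraries differed from one another. Against AM cells the rise of 1.12 on the log2 scale passed the test (standard error 0.26, adjusted p = 0.0223), and the difference from WT cells, 1.01, did not (standard error 0.26, adjusted p = 0.0785, 95% interval 0.40 to 1.61). Between AM and WT cells the value was -0.11 (95% interval -0.73 to 0.50), within the spread of the replicates. The paper reports a significant rise of OGDHL against WT cells, which the main fit here did not call. The difference from WT cells passed in the Wald test of DESeq2 (adjusted p = 0.0130), edgeR's likelihood ratio test (0.00782) and exact test (0.00856) and without a filter on low counts (0.0221), and its adjusted p ranged up to 0.169 over the settings tried. Its size was 1.32 without 6WP replicate 1 and 0.54 without 6WP replicate 2, and the rise against AM cells was 1.45 and 0.65 without these libraries. The call against AM cells was lost in the fit to those groups alone (adjusted p = 0.0548) and with any single WT or AM library left out (up to 0.142).

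OGDH (chromosome 7, 44606572 to 44709066 on the plus strand) took a different course. Its level was 200.3 and 193 CPM in WT, 340 and 355 in AM and 176 and 186 in the 6WP cells. AM cells stood well above the other groups, whose ranges did not overlap but were close. OGDH rose by 0.82 on the log2 scale from WT to AM cells (standard error 0.10, adjusted p = 0.00406) and was lower in 6WP than in AM cells by -0.94 (standard error 0.10, adjusted p = 0.00232), which is 0.521 times the AM level. Between 6WP and WT cells the value was -0.12 (95% interval -0.35 to 0.11, adjusted p = 0.514). The rise in AM cells had an adjusted p of 0.0561 to 0.0812 without a WT or AM library, and the fall in 6WP cells 0.0512 without AM replicate 2.

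The balance of the E1 paralogs needs no scaling between libraries. For every 100 reads of OGDH WT cells had 3.68 and 4.93 reads of OGDHL, AM cells 2.27 and 2.22 and 6WP cells 7.11 and 11.5. The groups did not overlap, in the order AM, WT, 6WP. The mean log2 ratio was 2.01 higher in 6WP than in AM cells, a factor of 4.03, and 1.09 higher in 6WP than in WT cells, and it was 0.92 lower in AM than in WT cells (-0.92). The exact two-sided permutation p was 0.333 in each case, the smallest that 2 against 2 libraries can give.

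Per kilobase of transcript, OGDH remained the main E1 transcript in every library. Its share of the summed CPM per kilobase of OGDH, OGDHL and DHTKD1 was 66.4 to 67.5% in WT, 76.3 to 81.0% in AM and 62.8 to 69.2% in the 6WP libraries. The OGDHL share was 2.81 and 3.70% in WT, 1.96 and 2.04% in AM and 5.56 and 8.17% in the 6WP libraries, so that it was a small part of the total even where it was highest. DHTKD1 made up the rest, from 16.9% in AM replicate 2 to 29.9% in WT replicate 2.

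**Figure D3:**
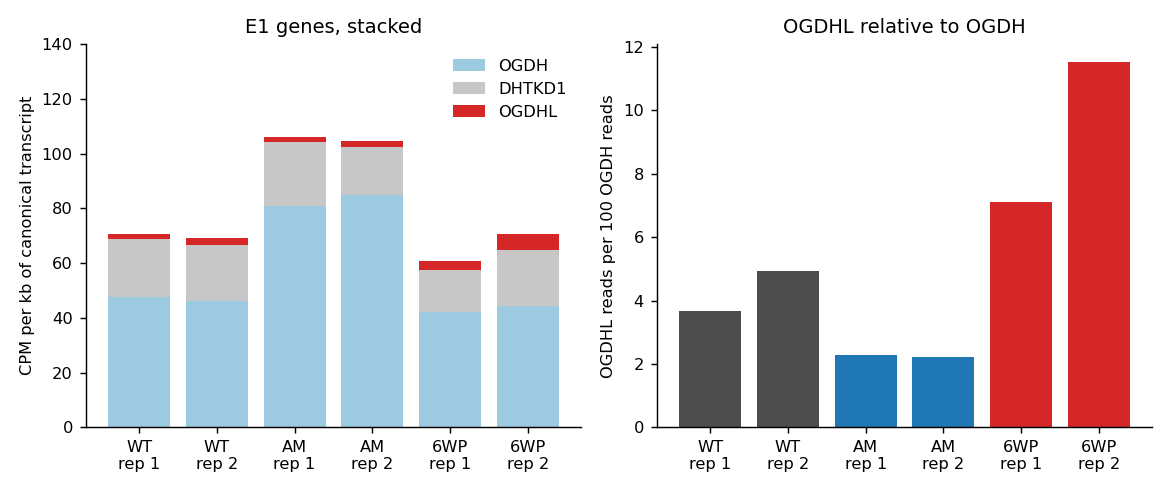
Left, CPM per kilobase of canonical transcript of the E1 genes OGDH, DHTKD1 and OGDHL stacked for each of the 6 libraries (y axis, linear from 0). Right, reads of OGDHL per 100 reads of OGDH in the same libraries (y axis, linear from 0). The stack is tallest in the AM libraries through OGDH, and the ratio is highest in the 6WP libraries, at 7.11 and 11.5.

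DHTKD1 (chromosome 10, 12068954 to 12123221 on the plus strand) varied more between the AM and between the 6WP replicates than between the group means. It was at 109 and 107 CPM in WT, 119.6 and 91.5 in AM and 79.4 and 106 in the 6WP libraries. The AM range took in the WT range and overlapped the 6WP range. None of its differences passed the test, and the largest was -0.22 for 6WP against WT cells (95% interval -0.62 to 0.18). Without 6WP replicate 2 that value was -0.47, and the difference from AM cells was -0.44.

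DLST (chromosome 14, 74881891 to 74903743 on the plus strand), the shared E2, was among the steadiest members within groups. Its level was 185.6 and 185.8 CPM in WT, 197.5 and 198.2 in AM and 162.5 and 156.9 in the 6WP libraries. The groups did not overlap, with 6WP cells lowest. The difference of 6WP from AM cells was -0.31 on the log2 scale (95% interval -0.53 to -0.09, adjusted p = 0.0552), just outside the threshold. It was inside with DESeq2's size factors (adjusted p = 0.0421) and in its Wald test (0.0227). Without 6WP replicate 1 it was -0.34 and without 6WP replicate 2 -0.32. The difference from WT cells was -0.22 (adjusted p = 0.232). DLD, the E3 of all these complexes, passed in no comparison, with group means of 187 CPM in WT, 222 in AM and 181 in the 6WP cells.

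Cytosolic aspartate aminotransferase is encoded by GOT1 (chromosome 10, 99396870 to 99430624 on the minus strand), and it exchanges amino groups between aspartate and glutamate. GOT1 was at 133 and 118 CPM in WT, 211 and 216 in AM and 215 and 135 in the 6WP libraries. 6WP replicate 1 lay at the AM level and 6WP replicate 2 just above the WT level. The rise from WT to AM cells, 0.77 on the log2 scale, passed the test (standard error 0.20, adjusted p = 0.0360). The comparisons with 6WP cells did not, at 0.48 against WT cells (95% interval 0.02 to 0.94, adjusted p = 0.206) and -0.29 against AM cells (-0.74 to 0.17, adjusted p = 0.326). With 6WP replicate 1 alone the value against WT cells was 0.75, and with 6WP replicate 2 alone the value against AM cells was -0.67. A single library gives no spread for its group. The rise in AM cells was lost after upper quartile normalization (adjusted p = 0.0516), with library totals alone (0.0591) and without any WT or AM library (up to 0.227).

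GOT2, the mitochondrial paralog, was at 262 and 256 CPM in WT, 329 and 345 in AM and 220.2 and 228 in the 6WP libraries. It rose by 0.38 on the log2 scale from WT to AM cells (adjusted p = 0.0356) and was lower in 6WP than in AM cells (-0.59, adjusted p = 0.00819). There were 50.8 and 46.1 reads of GOT1 per 100 of GOT2 in WT, 64.0 and 62.6 in AM and 97.7 and 59.0 in the 6WP libraries. The 6WP pair spanned the AM pair, and the exact permutation p for 6WP against AM cells was 1.0.

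Mitochondrial alanine aminotransferase, GPT2 (chromosome 16, 46884362 to 46931289 on the plus strand), makes alanine and oxoglutarate from pyruvate and glutamate. It was at 64.4 and 64.1 CPM in WT, 112 and 118 in AM and 143.3 and 143.2 in the 6WP libraries. Replicates lay close together, and the groups stood apart in the order WT, AM, 6WP. From WT to AM cells GPT2 rose by 0.84 on the log2 scale (standard error 0.10, adjusted p = 0.00370), and from WT to 6WP cells by 1.16 (standard error 0.10, adjusted p = 0.00448). The further step from AM to 6WP cells was 0.32 (95% interval 0.09 to 0.55, adjusted p = 0.0557), and it passed after upper quartile normalization (0.0228), with library totals alone (0.0394), with at least 10 counts in every library (0.0437) and with a gene length offset (0.0402). Leaving out a WT library took the adjusted p of 6WP against WT cells to 0.119 to 0.137, and leaving out a WT or AM library that of AM against WT cells to 0.0531 to 0.0737. GPT, the cytosolic paralog, averaged 10.1 CPM in WT, 15.4 in AM and 16.9 in the 6WP cells and passed in no comparison (adjusted p = 0.115 for 6WP against WT cells).

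GLUD1 (chromosome 10, 87050202 to 87094843 on the minus strand), glutamate dehydrogenase, had its lowest level in AM cells. It was at 453 and 399 CPM in WT, 319 and 338 in AM and 438 and 457 in the 6WP libraries. The 6WP and WT ranges overlapped, and the AM range lay below both. GLUD1 was higher in 6WP than in AM cells by 0.45 on the log2 scale (standard error 0.11, adjusted p = 0.0265), and its value for AM against WT cells was -0.38 (95% interval -0.63 to -0.12, adjusted p = 0.0510). Between 6WP and WT cells it was 0.07 (-0.18 to 0.32). The value for AM against WT cells passed in 8 of 11 alternative settings. The call against AM cells was lost in the fit to those groups alone (adjusted p = 0.0699) and with any single WT or AM library left out (up to 0.204). GLUD2, a retrogene copy of GLUD1 in which reads could be split between the genes by the counting, had 8 to 17 counts a library and passed in no comparison. The exons of GLUD1 share 3.25% of their length with SHLD2 on the opposite strand.

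Mitochondrial PEP carboxykinase, PCK2 (chromosome 14, 24094053 to 24110598 on the plus strand), turns oxaloacetate into phosphoenolpyruvate. It had the largest rise of the 9 members in 6WP cells against either reference. PCK2 was at 125 and 123 CPM in WT, 161 and 198 in AM and 463 and 406 in the 6WP libraries. Both 6WP libraries had more than 2 times the level of any other library. The log2 fold change was 1.81 against WT cells (standard error 0.13, adjusted p = 0.00338, rank 3 of 14672 genes by p-value) and 1.28 against AM cells (standard error 0.13, adjusted p = 0.00213). The step from WT to AM cells was 0.53 (standard error 0.13, adjusted p = 0.0304). The call against AM cells held in all 17 alternative fits. Without a WT library the adjusted p against WT cells was 0.0910 to 0.107, and without a WT or AM library that of AM against WT cells was 0.0836 to 0.270.

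PCK1, the cytosolic paralog that serves gluconeogenesis in liver and kidney, had 0 counts in all 6 libraries, which allows at most 0.0883 to 0.138 CPM. Pyruvate carboxylase, PC, feeds the same oxaloacetate pool from pyruvate. It was at 30.0 and 32.0 CPM in WT, 54.4 and 59.8 in AM and 36.9 and 32.6 in the 6WP libraries, a rise of 0.88 from WT to AM cells (adjusted p = 0.00591) and a difference of -0.72 between 6WP and AM cells (adjusted p = 0.00839). For each read of PC there were 4.15 and 3.86 reads of PCK2 in WT, 2.96 and 3.31 in AM and 12.6 and 12.4 in the 6WP libraries. The 6WP libraries stood apart from the rest, and the AM libraries were lowest.

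Per kilobase of transcript, ASNS and GLUD1 were level in WT cells, at 133 ± 16.0 and 129 ± 11.6 CPM per kilobase (SD, n = 2). In 6WP cells ASNS was at 299 ± 15.0, followed by PCK2 at 199 ± 18.6 and GLUD1 at 136 ± 4.27 CPM per kilobase. In AM cells ASNS was at 182 ± 6.56, GOT1 at 108 ± 1.85 and GLUD1 at 99.5 ± 4.02. OGDHL had the lowest level in each group, at 2.28 ± 0.41 in WT, 2.10 ± 0.04 in AM and 4.57 ± 1.69 CPM per kilobase in 6WP cells.

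The 82 other genes of these pathways, of which 76 were tested, were called most often between the untreated groups. In AM against WT cells 20 were higher and 1 was lower (27.6% called, beside 17.7% of all genes), with a median log2 fold change of 0.28. In 6WP against AM cells 4 were higher and 13 lower (22.4%, beside 21.3% of all genes), with a median of -0.27. Upper quartile normalization gave 15 higher and 3 lower in the former and 6 higher and 11 lower in the latter. In 6WP against WT cells 4 were higher and 1 was lower (6.58%, beside 3.00%), with a median of 0.02. These counts depended on single libraries, as did the calls over all genes. For 6WP against WT cells they were lowest without WT replicate 1 or 2, and for 6WP against AM cells without AM replicate 2. For AM against WT cells they were lowest without a WT library or AM replicate 2.

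The genes called higher in 6WP than in WT cells were PSAT1, BCAT1, ASS1 and PYCR1, all from the glutamate, glutamine and aspartate list (4 of 26 tested). PSAT1, the glutamate-dependent transaminase of serine synthesis, was at 314 and 291 CPM in WT, 419.7 and 441 in AM and 568 and 595 in the 6WP libraries. Like ASNS it passed at each step, by 0.51 from WT to AM (adjusted p = 0.0170) and 0.43 from AM to 6WP cells (adjusted p = 0.0241). BCAT1, which makes glutamate from branched-chain amino acids in the cytosol, was at 7.81 and 5.97 CPM in WT, 4.87 and 4.53 in AM and 18.7 and 18.3 in the 6WP libraries. Its log2 fold change was 1.42 against WT (adjusted p = 0.00899) and 1.98 against AM cells (adjusted p = 0.00202). Its promoter window holds TGATGCAA at -48, the 1 match to TGATGNAA among the 16 genes of this list with a promoter. Of the other lists, SLC25A11 alone holds a match, and it was not called in either comparison with 6WP cells. Over all windows 3.62% hold a match. ASS1, which joins aspartate to citrulline and has processed pseudogenes that could take some of its reads, was at 4.20 and 3.58 CPM in WT, 3.96 and 4.36 in AM and 9.26 and 9.94 in the 6WP libraries, a rise of 1.30 against WT (adjusted p = 0.0170) and 1.20 against AM cells (adjusted p = 0.00672). PYCR1, the mitochondrial proline-forming reductase, averaged 201 CPM in WT, 294 in AM and 341 in the 6WP cells. BCAT1 and ASS1 rose against both references, as did PSAT1, and CCBL1, a kynurenine-oxoglutarate transaminase, rose against AM cells alone (0.67, adjusted p = 0.0154). BCAT1 and ASS1 were not called in AM against WT cells. ACO1, the cytosolic aconitase, was lower in 6WP cells (-0.87, adjusted p = 0.00830) and in AM cells (-0.67, adjusted p = 0.00799) than in WT cells.

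Around OGDH, the shares called are read against the 17.7% of all genes called in AM against WT cells and the 21.3% called in 6WP against AM cells. Of the 9 dehydrogenase partners, DLAT and MRPS36 rose from WT to AM cells (22.2%), and these and PDHX were lower in 6WP than in AM cells (33.3%). DLAT, the E2 of pyruvate dehydrogenase, averaged 175 CPM in WT, 238.5 in AM and 143.5 in the 6WP cells, and MRPS36, a small subunit that ties the E3 to the oxoglutarate dehydrogenase core, 32.0, 49.3 and 31.5 CPM. Of 24 tested TCA cycle and anaplerosis genes, 6 were higher and 1 lower in AM than in WT cells (29.2% called), and 4, among them IDH3A, FH and PC, were lower in 6WP than in AM cells (16.7%, under the share of all genes). IDH3A, which makes oxoglutarate in the cycle and shares 38.2% of its exon length with ACSBG1 on the opposite strand, averaged 105 CPM in WT, 161 in AM and 101 in the 6WP cells. Of 8 tested mitochondrial carriers, SLC25A10, SLC25A11, SLC25A13 and SLC25A22 were higher in AM than in WT cells (50.0%), and SLC25A13 and SLC25A22 lower in 6WP than in AM cells (2 of 8). SLC25A10 shares 46.6% of its exon length with another gene model on its strand (ENSG00000262660). SLC25A13, the aspartate-glutamate carrier, had a log2 fold change of 0.67 (adjusted p = 0.00755) for AM against WT cells and -0.92 (adjusted p = 0.00272) for 6WP against AM cells.

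GLUL, glutamine synthetase, which adds the amide nitrogen of glutamine, passed in no comparison, with group means of 206 CPM in WT, 170 in AM and 215 in the 6WP cells. GLS2, the liver-type glutaminase, averaged 18.6 CPM in WT, 28.2 in AM and 17.0 in the 6WP cells, and its value for 6WP against AM cells was -0.73 (adjusted p = 0.0249). Its exons share 77.1% of their length with SPRYD4 on the opposite strand. ASRGL1, an asparaginase that works against ASNS, was at 30.3 and 27.3 CPM in WT, 46.5 and 59.7 in AM and 29.5 and 30.1 in the 6WP libraries. It rose by 0.88 from WT to AM cells (adjusted p = 0.00920), and its value for 6WP against AM cells was -0.83 (adjusted p = 0.00922), so ASNS was highest in 6WP cells and ASRGL1 in AM cells. Of the 9 glutamine amidotransferases, which like ASNS take the amide nitrogen of glutamine, CTPS1 and GFPT1 rose from WT to AM cells (22.2%, beside 17.7% of all genes), and CTPS1 was the one called in 6WP against AM cells (11.1%, beside 21.3%). CTPS1, which makes CTP, had a log2 fold change of 0.72 (adjusted p = 0.0103) there and of -0.70 for 6WP against AM cells (adjusted p = 0.00979).

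**Figure D4:**
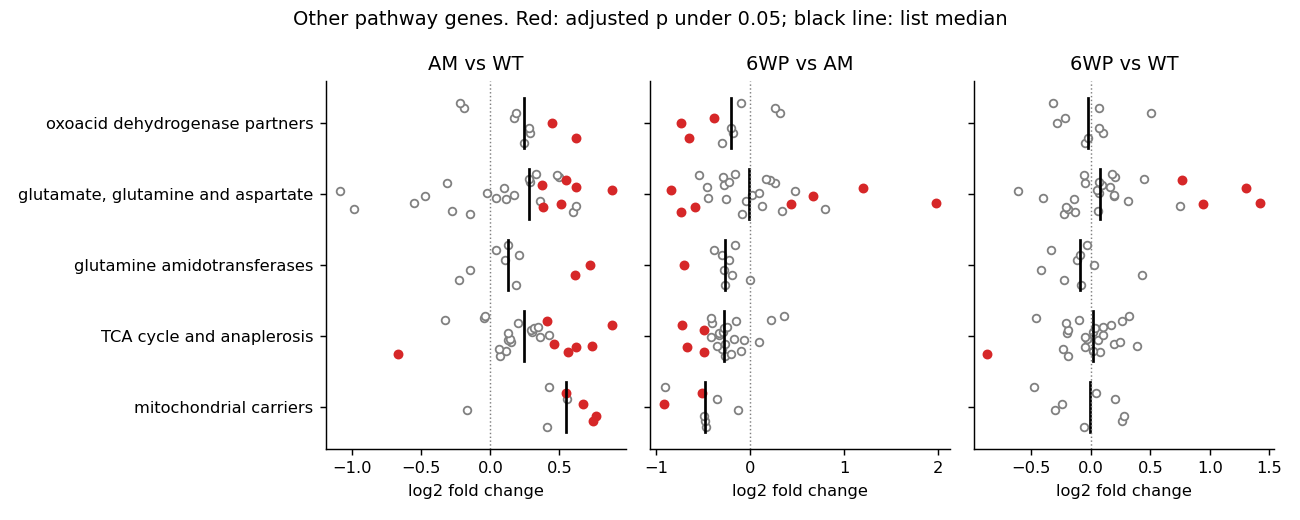
Log2 fold change (x axis, one range for each panel) of the other tested genes of the pathways, in 5 lists (y axis), for AM against WT, 6WP against AM and 6WP against WT cells. Red points have an adjusted p under 0.05 (edgeR) and black lines are list medians. In the carrier list the median is 0.55 for AM against WT cells and -0.48 for 6WP against AM cells.

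The genes whose course over the 6 libraries was most like that of ASNS were CEBPG, SARS, ZNF790-AS1, SLC3A2 and MTHFD2. Likeness is the root mean square difference of log2 CPM centred on each gene's mean, over 12037 genes whose mean log2 CPM was 1 or more, and it was 0.0538 for CEBPG, 0.0890 for SARS and 0.110 for MTHFD2. CEBPG encodes a C/EBP factor, SARS the cytosolic seryl-tRNA synthetase, SLC3A2 the heavy chain of amino acid exchangers and MTHFD2 a mitochondrial folate enzyme. Group means of CEBPG were 131.5 CPM in WT, 178 in AM and 291 in the 6WP cells. Among the members, GPT2 came nearest to ASNS (place 56, difference 0.199), then PCK2 (place 319, difference 0.299). OGDH was far from it, with a difference of 0.716.

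For OGDHL the nearest genes were AMER3, GIPC3, LINC01061, DTX3 and LPP, with differences of 0.110 to 0.125. AMER3 averaged 34.7 CPM in WT, 33.9 in AM and 74.7 in the 6WP cells, and LPP, a focal adhesion protein gene, 52.6, 47.2 and 88.2 CPM. All 5 had their highest group mean in 6WP cells and their lowest in AM cells, as OGDHL did. This follows largely from picking them by nearness to OGDHL. The nearest member was ASNS, with a difference of 0.383, and OGDH was again far, at 0.851. Each distance is taken over the same 6 libraries, so all of them share the depth and scaling of these libraries.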

How the data were processed

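The authors deposited raw read counts per gene symbol for 6 libraries of 22Rv1 cells, made with a stranded TruSeq kit and sequenced as single-end reads. The submitters' processing notes name STAR 2.5.3a, featureCounts 1.5.3, StringTie 1.3.3, edgeR 3.22.3, R 3.5.0 and hg38. The strand setting and annotation are not given in the sources used here. The counts carry no normalization, and 0 columns were left out.

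With edgeR 4.0.16 in R 4.3.3, genes were filtered by filterByExpr (14672 kept of 29804), scaled by TMM and fitted in a quasi-likelihood model over all 6 libraries without covariates. Standard errors and intervals therefore use a spread shared by all groups, and those of AM against WT cells also carry the 6WP replicates. For OGDHL in AM against WT cells the standard error was 0.27, and 0.16 in the fit to those groups alone. All 3 comparisons were tested two-sided, with Benjamini-Hochberg adjustment over the 14672 genes (threshold 0.05). The pipeline was tested on simulated counts. These were drawn with the same spread for all genes and groups, so they cannot show how the calls behave with the wider 6WP pair. Alternatives were other scalings, filters and tests (DESeq2 1.42.0), the fit to the compared groups alone, a gene length offset (87.1% of genes had a length), a replicate block and each library left out in turn. Ratios used the exact permutation test. Correlations of same-numbered libraries' deviations over genes were 0.0395 (WT with AM), 0.0873 (WT with 6WP) and -0.0206 (AM with 6WP), so the numbers were not taken to pair samples.

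The members and lists were chosen with earlier results of these data known. All 9 members are named, as is a set of their paralogs and neighbouring steps, other pathway genes only where called and among the 8 smallest p-values of a comparison, and the 5 genes nearest to ASNS and to OGDHL. GFPT1, PDHX, FH, SLC25A10, SLC25A11 and SLC25A22 were named outside this rule, after their values were seen. Some genes of the lists are counted but not reported here by name. Lengths and positions are from GENCODE v44 and promoters from RefSeq, both on GRCh38. Replicates are separate cultures only as far as the labels call them biological replicates.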

Additional observations from a re-analysis of the deposited data

How the results depend on the processing

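Of 459 fold changes of members under 17 alternative fits, 381 kept their direction and side of the threshold, 43 lost and 30 gained a call, and 5 turned direction. The 5 were uncalled and near 0. GLUD1 in 6WP against WT cells was -0.021 without WT replicate 2 (leave-one-out range -0.021 to 0.16). DHTKD1 in 6WP against AM cells was 0.016 without AM replicate 1 and 0.0065 without 6WP replicate 1 (range -0.44 to 0.016), and in AM against WT cells 0.13 without AM replicate 2 (range -0.25 to 0.13). OGDHL in AM against WT cells was 0.10 without WT replicate 2 (range -0.28 to 0.10). Leaving out each library, members called ranged from 0 to 6 (6WP against WT), 1 to 8 (6WP against AM) and 0 to 6 (AM against WT), and other pathway genes called from 0 to 28, 1 to 44 and 0 to 47. At the lowest, without either WT library, 4 members had an unadjusted p under 0.05 in 6WP against WT cells by edgeR. The fit to the compared groups alone called 3 members in 6WP against AM cells, beside 1309 genes over the whole table. It called 3, 10 and 47 other pathway genes, beside 96, 1309 and 6620 over all genes (6WP against WT, then 6WP against AM, then AM against WT). The likelihood ratio and exact tests each called 8 other pathway genes in 6WP against WT cells. Over all genes, 6WP against WT calls numbered 440 in the quasi-likelihood test, 1114 in DESeq2's Wald test, 1492 in the likelihood ratio test, 1419 in the exact test, 894 without a filter and 96 in the fit to those groups alone, and AM against WT calls 2593 and, with those groups alone, 6620. Under scaling by upper quartile the median of all genes moved from 0.05 to 0.14 in 6WP against AM cells and from -0.0023 to -0.09 in AM against WT cells. The cause was not tested. With the replicate block 3, 5 and 5 members and 5, 16 and 20 other pathway genes were called, beside 393, 3069 and 2485 over all genes. No member's call changed. A library left out leaves a group of 1, which is assumed to vary like the others. In each comparison the calls over all genes fell without a WT or AM library and rose without a 6WP library. The ratio of OGDHL to OGDH kept its order in every alternative. GLUD2 had 8 to 17 counts a library, where counting error alone is wide.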
